A study of Polypterus senegalus with 8 samples.

Results

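The pectoral fin of the bichir (*Polypterus senegalus*), a ray-finned fish with fleshy fins that regrow after amputation, was compared between 14 and 7 days post-amputation (dpa) by mRNA sequencing. Regrowth depends on a blastema, a mound of dedifferentiated and dividing cells that gathers beneath the wound epidermis. In this fin the blastema has formed by 7 dpa, and 14 dpa falls in the later outgrowth. The comparison used 2 of the 8 libraries in the series, the mRNA library at 14 dpa and the mRNA library at 7 dpa. Every fin in both libraries had been amputated. The mRNA libraries at 3 dpa and of uninjured fins (0 dpa) are given beside them as levels. The other 4 libraries hold small RNAs. Each stage was a single polyA+ library made from a pool of at least 4 tissues, so the spread between fish was not measured, no test between stages was possible and no p-value is given. Age, sex and the number of fish were not analysed here.

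In regenerating fins and limbs, metalloproteinases open the old matrix while leukocytes clear debris, and growth factors of the FGF, IGF, BMP and Wnt families keep blastema cells dividing. Homeobox genes of the HoxA cluster set the distal part of the appendage. Later the blastema cells leave this state, and skeletal elements, muscle, nerve sheath and a permanent matrix are laid down again.

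Transcripts come from a de novo assembly and were summed per component, the assembly's unit closest to a gene. Of 94050 components, 28836 had a mean of at least 1 CPM (counts scaled to a common library size) over the 4 mRNA libraries and 65214 did not. A component can pass this filter through the stage where it is high, so counts within a list describe the components that passed and no others. A level is given in CPM. A change is the difference in log2(CPM + 1) at 14 dpa minus 7 dpa, followed by its 95% exact binomial interval, which covers counting error only. Reads carry no molecular identifiers, so these intervals are narrower than the true error. A component is called higher or lower at 14 dpa where its change passed 0.58, or 1.5-fold. Names are predicted zebrafish orthologs from the study's tables, of which some were held only in part here. Matching gave a name to 2563 components. Roles given below are those known from other vertebrates.

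By library totals, 6944 components (24.1%) were higher at 14 dpa and 2092 (7.25%) were lower, and the median change was 0.18. A trimmed mean of log ratios moved changes at 14 dpa down by up to 0.41. It gave 3544 components (12.3%) higher and 5537 (19.2%) lower, and put the median at -0.15. Where the whole counting interval had to pass 0.58, 15.3% were higher and 4.21% lower by library totals. The balance between higher and lower components thus depended on the scaling. Of 132 components chosen by a fixed rule and described below or in the closing section, 57 were higher and 37 lower by library totals. By the trimmed mean all 37 stayed lower, 40 stayed higher and 17 fell inside the threshold. A further 6 that lay inside it became lower. Because that scaling lowers every ratio by up to 0.41, the 37 could only stay lower and none of the 57 could turn sign. Among the 2070 components with a single gene name that passed the filter, 21.3% were higher and 8.45% lower. Most of these names come from tables that the study selected by the change from 0 to 7 dpa. They share the 7 dpa library with the present comparison, so no list below is independent evidence of its own direction.

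The 4 mRNA libraries held 38095865 to 43350285 reads, with 38377535 at 14 dpa and 43350285 at 7 dpa. The 7 dpa library stood apart from the libraries on either side of it. Of all components past the filter, 7.6% were higher and 1.99% lower at 14 dpa than at 3 dpa, or 9.59% in either direction, whereas 7.34% were higher and 20% lower at 7 dpa than at 3 dpa. Across 28836 components, Spearman's rho of levels was 0.956 for 14 with 3 dpa. It was 0.896 for 14 with 7 dpa, and 0.923 for 7 with 3 dpa, and these pairs share libraries. Fewer components were listed at 0 at 14 dpa (1501) than at 7 dpa (5987). With 1 library per stage, stage and library cannot be told apart, and for that reason the median at 14 minus 3 dpa stands beside that of each list.

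**Figure D1:**
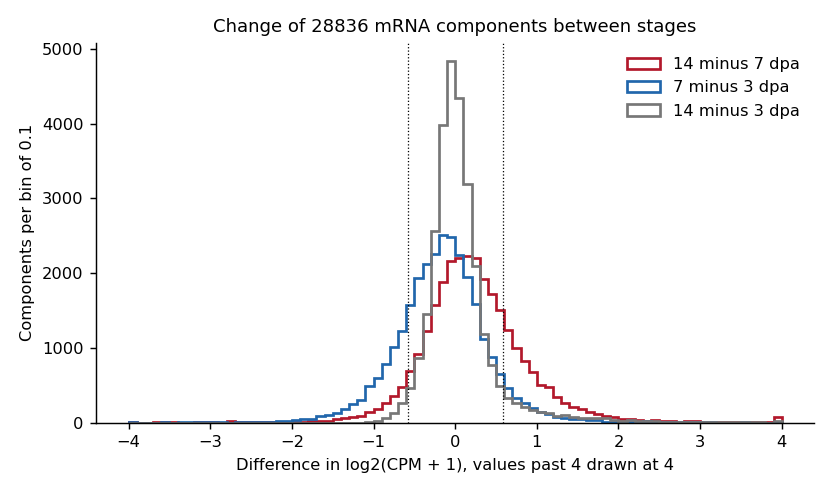
Distribution of the change of all 28836 components past the filter for 3 pairs of stages, as the difference in log2(CPM + 1) on the x axis and components per bin on the y axis. The pairs share libraries, and dotted lines mark 0.58 in each direction. The curve for 14 minus 3 dpa was the narrowest, with 7.6% of components higher and 1.99% lower, and that for 14 minus 7 dpa was shifted to higher values, with 24.1% higher and 7.25% lower.

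Collagenase components made up 5 of the 12 largest named falls, and proteases as a group leaned lower at 14 dpa. Of 31 protease and inhibitor components, 27 passed the filter, and 13 were lower (48.1%) and 6 higher (22.2%), against 7.25% and 24.1% of all components. Their median change was -0.46 against 0.18 for all components, and -0.26 at 14 minus 3 dpa. The 11 components named *mmp13a* or *mmp13b*, collagenases that cut fibrillar collagen, together had 22.6, 1299, 3629 and 832 CPM at 0, 3, 7 and 14 dpa, a summed change of -2.12 (-2.14 to -2.11). Near-identical copies can exchange reads in such an assembly, so the split among these components is uncertain. One *mmp13b* component (comp59559_c0) had 80.9 CPM at 14 dpa against 553 CPM at 7 dpa, and a *mmp13a* component (comp61055_c0), singled out after its values were seen, differed the other way with 37.9 CPM at 14 dpa against 12.6 CPM at 7 dpa. Within the family 6 of 9 components past the filter were lower and 3 higher. These count as separate members in the shares of the protease list, whose 27 components carry 18 gene names.

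The gelatinase *mmp9* digests denatured collagen and basement membrane. It had 16.2, 786, 1466 and 546 CPM at 0, 3, 7 and 14 dpa, a change of -1.42 (-1.45 to -1.40), or 2.69 times lower at 14 dpa. Its 14 dpa level lay below both the 3 and the 7 dpa level and far above that of uninjured fin. The PCR primers that the study designed for this bichir transcript are printed to identify it, 5′ to 3′ and with no base marked:
mmp9 forward primer: ctggaggaagcaggtgatttat
mmp9 reverse primer: gcctggttcctactgtgttt

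The secreted serine protease *htra1b* had 83.4 CPM at 14 dpa against 369 CPM at 7 dpa (-2.13, -2.19 to -2.08). Components chosen after their values were seen also lay lower, among them the membrane protease *adam8a* (166 CPM at 14 dpa against 394 CPM at 7 dpa) and the metalloproteinase inhibitor *timp2a* (287 against 620 CPM in comp16588_c0). The component named *timp2* (comp16091_c0) was nearly level at 279.9 against 264 CPM. The membrane protease *mmp14* and the gelatinase *mmp2*, which *mmp14* activates, did not share the fall. *mmp14* had 694 CPM at 14 dpa against 711 CPM at 7 dpa, and *mmp2* had 431 against 361 CPM. At the other end, *adamts15b*, a protease of the aggrecanase family, had 24.2 CPM at 14 dpa against 3.99 CPM at 7 dpa (2.33, 2.14 to 2.53). All the falls named here also passed 0.58 by the trimmed mean, which lowers every ratio and so could not undo a fall.

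**Figure D2:**
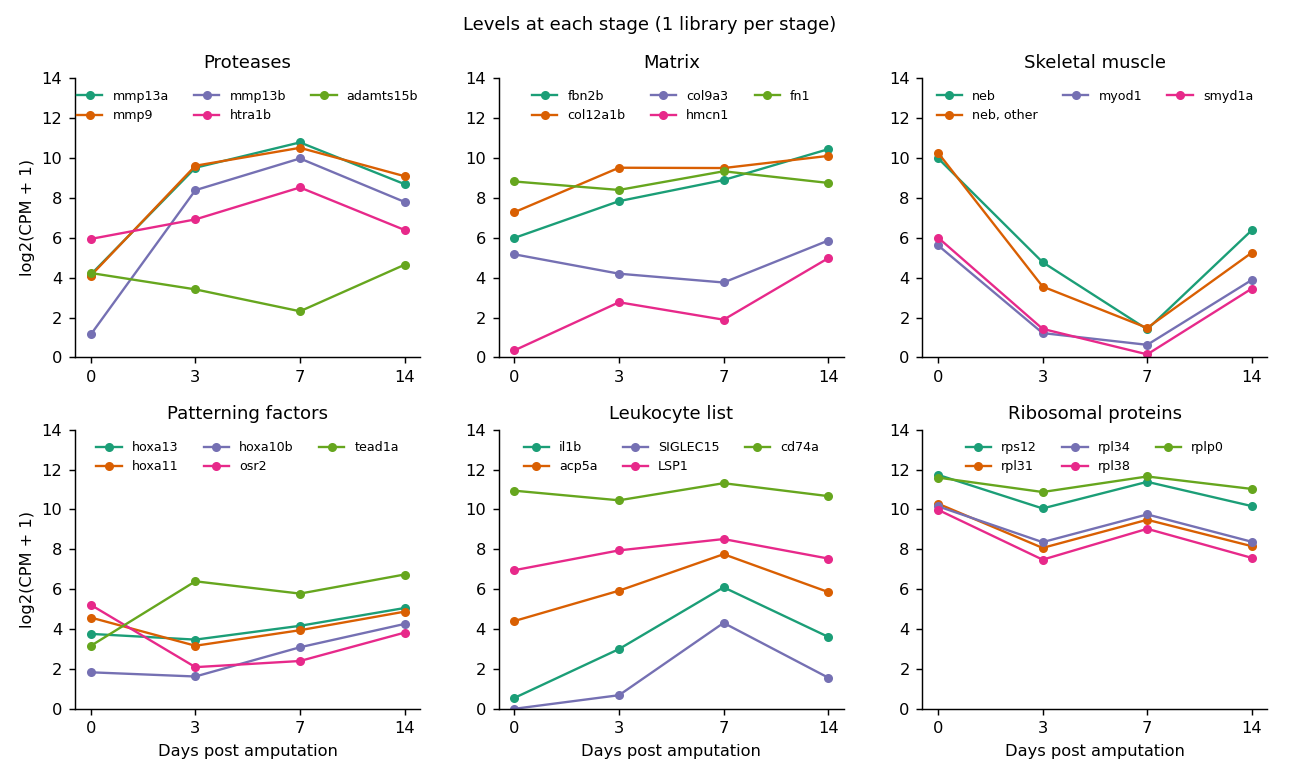
Levels of named components at 0, 3, 7 and 14 dpa in log2(CPM + 1), 1 library per point, with stages spaced evenly on the x axis. The 6 panels group proteases, matrix, skeletal muscle, patterning factors, the leukocyte list and ribosomal proteins. The collagenases, *mmp9*, *htra1b*, *il1b* and *acp5a* peaked at 7 dpa, *fbn2b* was highest at 14 dpa (1398 CPM), and both *neb* components stayed under their uninjured level at 14 dpa.

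Genes of the matrix itself split in both directions. Of 68 components, 44 passed the filter, with 20 higher (45.5%) and 11 lower (25%), against 24.1% and 7.25% of all components. The median was 0.37, and 0.88 at 14 minus 3 dpa. By the trimmed mean the list had 15 higher and 15 lower and a median of -0.03. The microfibril gene *fbn2b* (fibrillin 2) had 63.0, 229, 478 and 1398 CPM at 0, 3, 7 and 14 dpa, a change of 1.55 (1.52 to 1.57). Its level at 14 dpa exceeded that of every other stage. *col9a3*, a chain of cartilage collagen IX, had 57.3 CPM at 14 dpa against 12.6 CPM at 7 dpa (2.10, 1.98 to 2.23) and 35.1 CPM in uninjured fin. All 4 components of the basement membrane gene *hmcn1* past the filter were higher, with 30.6 CPM at 14 dpa against 2.72 CPM at 7 dpa in comp47446_c0 (3.09, 2.87 to 3.30) and 217 against 98.6 CPM in comp55077_c0 (1.13, 1.08 to 1.18). The small proteoglycan *podn* had 10.03 CPM at 14 dpa against 1.45 CPM at 7 dpa, still below the 43.5 CPM of uninjured fin. Its second component (comp52971_c0) lay inside the threshold at 1.59 against 0.854 CPM.

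The abundant *col12a1b*, a collagen that coats fibrils, had 1107 CPM at 14 dpa against 725 CPM at 7 dpa (0.61, 0.59 to 0.63), a call that was lost by the trimmed mean at 0.20. Chosen after their values were seen, the collagen cross-linking enzyme *lox* (82.6 against 42.5 CPM) and the fibril-nucleating chain *col5a1* (20.4 against 9.85 CPM) were also higher by library totals, and *lox* lay inside the threshold by the trimmed mean (0.54). Other matrix genes were lower. Fibronectin (*fn1*), a glycoprotein of early wound matrix, had 432 CPM at 14 dpa against 648 CPM at 7 dpa, just past the threshold at -0.58 (-0.61 to -0.56). Further components chosen after their values were seen were the basement membrane laminin chain *lamb1a* (163 against 418 CPM), the hyaluronan synthase *has2* (19.8 against 35.7 CPM) and the collagen prolyl hydroxylase *p4ha3* (14.1 against 32.3 CPM). For *has2* the level at 14 dpa was above the 10.6 CPM at 3 dpa, and for *lamb1a* it was below the 294 CPM at 3 dpa.

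**Figure D3:**
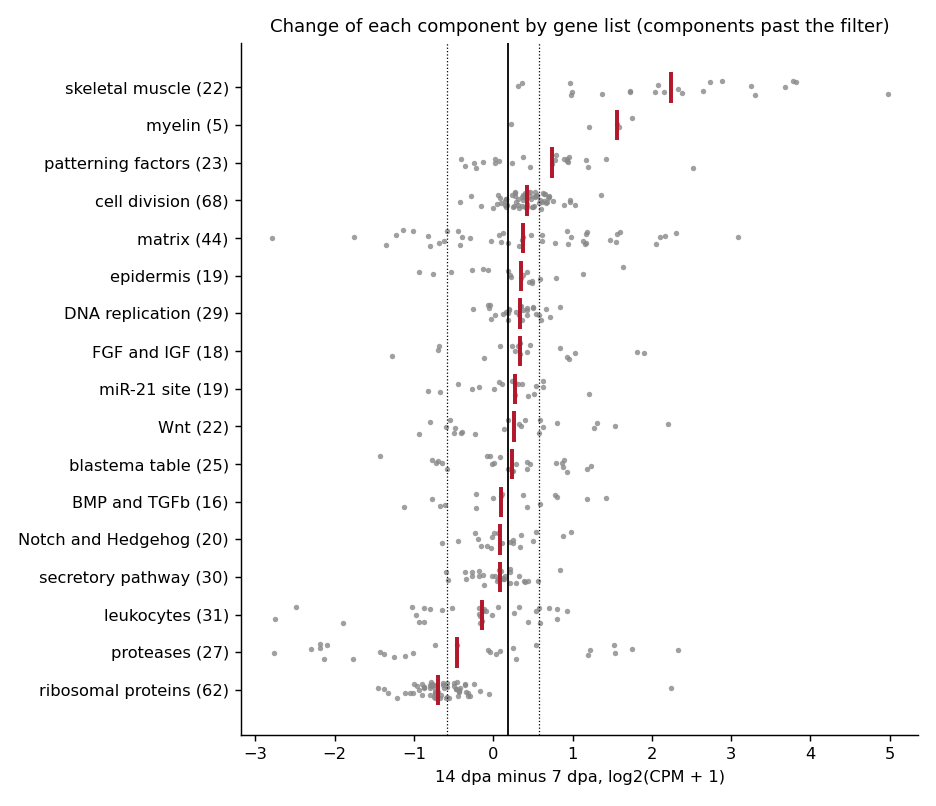
Change of every component past the filter from 7 to 14 dpa, by gene list, in log2(CPM + 1). Grey points are components, red bars list medians, the solid line the median of all components (0.18) and dotted lines 0.58 in each direction, and numbers in brackets count components. Skeletal muscle (median 2.24) and myelin (1.56) lay highest and ribosomal proteins (-0.70) lowest.

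Skeletal muscle genes were the list with the highest median at 14 dpa. Of 28 components, 22 passed the filter, with 20 higher (90.9%) and none lower, against 24.1% and 7.25% of all components. The 22 components carry 12 gene names. The trimmed mean also gave none lower. The median change was 2.24, against 1.23 at 14 minus 3 dpa. In bulk tissue, fewer cells of a type and less RNA per cell cannot be told apart. The 8 components of *neb*, which encodes the giant thin-filament protein nebulin, together had 2359.7, 79.6, 33.7 and 191 CPM at the stages 0, 3, 7 and 14 dpa. The summed change was 2.47 (2.39 to 2.55), and the 14 dpa level reached 8.1% of that in uninjured fin, against 1.43% at 7 dpa. Most of the 7 dpa sum came from comp57984_c0, which had 59.4, 32.1, 30.1 and 37.7 CPM at 0, 3, 7 and 14 dpa. That component lay inside the threshold at 0.32, while 5 of the 6 *neb* components past the filter were higher. It also enters the marker sum given below. The master regulator of the muscle lineage, *myod1*, had 48.4, 1.34, 0.554 and 13.8 CPM at 0, 3, 7 and 14 dpa (3.26, 3.00 to 3.47). The sarcomere assembly factor *smyd1a* had 9.98 CPM at 14 dpa against 0.115 CPM at 7 dpa, where it rested on 5 reads. The LIM protein gene *fhl2a*, which heart and skeletal muscle express, had 42.9 CPM at 14 dpa against 2.75 CPM at 7 dpa (3.55, 3.34 to 3.76). Levels of these genes at 14 dpa exceeded those at both 3 and 7 dpa and stayed below those of uninjured fin. Summed over 8 skeletal muscle markers in 19 components, of which 14 of 15 past the filter were higher, the level was 329 CPM at 14 dpa against 64.2 CPM at 7 dpa. It was 146 CPM at 3 dpa and 2976 CPM in uninjured fin. At 14 dpa none of the 19 components was listed at 0, and at 7 dpa 5 were. The study's discussion describes bichir fins as lacking skeletal muscle, whereas these transcripts were abundant in uninjured fin. Their tissue of origin and a change in the share of muscle tissue were not tested.

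Myelin genes were also higher. Of 10 components, 5 passed the filter, with 4 higher (80%) and none lower, against 24.1% and 7.25% of all components. The median was 1.56, and 1.2 by the trimmed mean. Myelin protein zero (*mpz*), the main adhesion protein of peripheral myelin, had 44.6, 5.64, 0.807 and 5.06 CPM at 0, 3, 7 and 14 dpa (1.74, 1.46 to 2.004). Periaxin (*prx*), which Schwann cells use to anchor their sheath, had 28.3, 19.03, 7.80 and 25.5 CPM, and myelin basic protein (*mbp*) had 101, 25.4, 10.5 and 25.5 CPM. For *mpz* and *mbp* the 14 dpa level was close to that at 3 dpa, with differences of -0.13 and 0.00 between those stages. The list's median was 0.02 at 14 minus 3 dpa.

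Patterning factors were higher at 14 dpa in 12 (52.2%) of the 23 components that passed the filter (of 28), and none was lower. Of all components, 24.1% were higher and 7.25% lower. The list's median was 0.74. By the trimmed mean 4 were higher and 4 lower and the median was 0.40, and at 14 minus 3 dpa it was 1.2. The posterior HoxA genes mark the distal fin and limb. *hoxa13* had 12.5, 10.1, 16.9 and 32.3 CPM at 0, 3, 7 and 14 dpa (0.89, 0.77 to 1.02), *hoxa11* had 22.9, 7.95, 14.4 and 28.3 CPM (0.93, 0.79 to 1.07) and *hoxa10b* had 2.56, 2.07, 7.50 and 18.1 CPM (1.17, 0.995 to 1.34). Each of the 3 was lowest at 3 dpa and highest at 14 dpa. By the trimmed mean, *hoxa10b* kept its call at 0.79 while *hoxa13* (0.50) and *hoxa11* (0.54) lay within the threshold. The joint and mesenchyme regulator *osr2* had 13.1 CPM at 14 dpa against 4.27 CPM at 7 dpa and 36.1 CPM in uninjured fin. *prrx1b*, a marker of limb and fin mesenchyme, had 79.4 CPM at 14 dpa against 75.7 CPM at 7 dpa. The 2 components of the Hippo pathway factor *tead1a* were higher, at 106 against 53.9 CPM and 26.0 against 13.1 CPM, calls lost by the trimmed mean at 0.56 and 0.55. At 3 dpa they had 83.2 and 19.2 CPM.

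In the Wnt list, 22 of 31 components passed the filter, with 7 higher (31.8%) and 3 lower (13.6%), against 24.1% and 7.25% of all components. The median was 0.26, and 0.15 at 14 minus 3 dpa, and the trimmed mean turned it to -0.05 with 4 higher and 9 lower. Both secreted Wnt antagonists named by the rule were higher at 14 dpa. *frzb* had 25.4, 1.18, 1.57 and 10.8 CPM at 0, 3, 7 and 14 dpa (2.2, 1.95 to 2.45), and *wif1* had 59.0, 7.11, 7.27 and 22.98 CPM (1.54, 1.37 to 1.71). Both remained below their uninjured level. *axin2*, a feedback inhibitor that canonical Wnt signalling induces, had 24.9 CPM at 14 dpa against 48.5 CPM at 7 dpa (-0.94, -1.04 to -0.83), and returned to the 24.7 CPM of uninjured fin. The effector *ctnnb1* had 505 CPM at 14 dpa against 737 CPM at 7 dpa (-0.54), and the Wnt export factor *wls* had 59.8 against 70.4 CPM (-0.23), and both were lower by the trimmed mean (-0.95 and -0.63). The planar polarity gene *vangl2* had 12.0 CPM at 14 dpa against 4.24 CPM at 7 dpa, near its 10.7 CPM at 3 dpa. Chosen after its values were seen, *wnt5b* was higher at 56.6 against 32.0 CPM (0.80, and 0.41 by the trimmed mean). *DACT3*, chosen in the same way, was lower at 4.27 against 8.14 CPM (-0.79). A change in Wnt signalling was not tested.

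In the FGF and IGF list, 18 of 19 components passed the filter, with 6 higher (33.3%) and 3 lower (16.7%), against 24.1% and 7.25% of all components. The median was 0.34, and 0.44 at 14 minus 3 dpa, and the trimmed mean gave 3 higher, 3 lower and 0.00. The receptor *fgfr3* had 2.53, 25.2, 7.29 and 29.9 CPM at 0, 3, 7 and 14 dpa (1.90, 1.73 to 2.06), so that 7 dpa was the low stage of regeneration. The list holds 3 IGF-binding proteins, of which 1 was higher, 1 lower and 1 inside the threshold. *igfbp5b* had 16.9 CPM at 14 dpa against 4.11 CPM at 7 dpa (1.81, 1.61 to 2.01), and *igfbp3* had 56.0 CPM at 14 dpa against 137 CPM at 7 dpa (-1.27, -1.34 to -1.20). The third, *igfbp2a*, named after its values were seen, had 16.5 against 13.8 CPM (0.24). The mRNA-binding protein gene *igf2bp3* had 22.6 against 10.6 CPM. The FGF-responsive factor *etv5a* had 145 against 137 CPM. Chosen after their values were seen, the mesenchymal ligand *fgf10a* (29.5 against 14.8 CPM) was higher by library totals but not by the trimmed mean (0.56), and the FGF-responsive factor *etv4* (31.9 against 52.0 CPM) lower.

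In the BMP and TGFβ list, 16 of 19 components passed the filter, with 5 higher (31.3%) and 4 lower (25%), against 24.1% and 7.25% of all components. The median was 0.10 at 14 minus 7 dpa and at 14 minus 3 dpa, which the trimmed mean turned to -0.28 with 2 higher and 6 lower at 14 minus 7 dpa. The activin subunit gene *inhbab* had 8.16 CPM at 14 dpa against 18.9 CPM at 7 dpa (-1.12, -1.29 to -0.95). *bambia*, a decoy receptor that dampens BMP signalling, had 16.7, 4.99, 14.1 and 33.2 CPM at 0, 3, 7 and 14 dpa (1.18, 1.04 to 1.31). *rgmd*, of the repulsive guidance family of BMP co-receptors, had 54.8 against 19.9 CPM. The activin receptor *acvr2aa* had 34.7 against 19.7 CPM, and the secreted glycoprotein *fstl1b* had 601 against 399.7 CPM, calls that were both lost by the trimmed mean at 0.39 and 0.18. In the Notch and Hedgehog list, 20 of 27 components passed the filter, 2 were higher (10%) and 1 was lower (5%), against 24.1% and 7.25% of all components. The median was 0.09, and 0.13 at 14 minus 3 dpa, and the trimmed mean turned it to -0.23 with 1 higher and 3 lower. Both higher ones, named after their values were seen, carry the name of the Hedgehog receptor component *smo*, with 7.09 against 3.39 CPM in comp36611_c0 and 7.40 against 3.28 CPM in comp36612_c0, and may be parts of 1 gene. The lower one by library totals was the Notch target *her6* with 23.1 CPM at 14 dpa against 36.7 CPM at 7 dpa (-0.65, -0.76 to -0.53). Its relative *her9*, lower by the trimmed mean alone (-0.84), had 58.8 against 80.1 CPM (-0.44), the Hedgehog effector *gli2a* 14.7 against 10.1 CPM (0.50), the Notch fucosyltransferase *pofut1* 10.1 against 6.67 CPM (0.54) and the Hedgehog regulator *rab23* 49.4 against 49.8 CPM.

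The study's table of blastema genes holds 25 bichir components, and all passed the filter. At 14 dpa 7 were higher (28%) and 6 lower (24%), against 24.1% and 7.25% of all components. The median was 0.23, and -0.15 by the trimmed mean, where all components had 0.18 and -0.15. At 14 minus 3 dpa it was 0.35. The higher ones were *cx43*, *bambia*, *hoxa11*, *hoxa13*, *erbb3*, *cxcl12* and *msxc*, and by the trimmed mean *cx43* (0.84) and *bambia* (0.79) alone stayed past 0.58. The lower ones were *mmp9*, *bmp2*, *junb*, *fgf20*, *her6* and *fn1*. All 6 stayed past it, as had to happen with a scaling that lowers every ratio. The gap junction gene *cx43*, whose dosage sets ray segment length in zebrafish fins, had 4.68, 29.2, 26.6 and 64.1 CPM at 0, 3, 7 and 14 dpa (1.24, 1.14 to 1.33). The neuregulin receptor *erbb3* had 57.7 CPM at 14 dpa against 30.7 CPM at 7 dpa, while its partner *erbb2* had 71.8 against 58.8 CPM in the table's component and 31.4 against 21.6 CPM (0.52) in another. *msxc*, of the Msx family of blastema homeobox genes, had 7.95 against 4.15 CPM, and *msxe* had 12.7 against 10.6 CPM.

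The chemokine *cxcl12*, which guides migrating cells, had 5.62, 5.64, 4.31 and 8.65 CPM at 0, 3, 7 and 14 dpa (0.86, 0.64 to 1.08). The change rests on 332 reads at 14 dpa and 187 reads at 7 dpa. Its primers are printed to identify the transcript, 5′ to 3′ and with no base marked:
cxcl12 forward primer: ggagtttctcagggtagcaataa
cxcl12 reverse primer: ggtgcagaagcacagagaa

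The early growth factor *fgf20*, required for blastema formation in zebrafish, had 0.332, 7.45, 6.14 and 3.39 CPM at 0, 3, 7 and 14 dpa (-0.70, -0.95 to -0.45). The immediate early factor *junb* had 518 CPM at 14 dpa against 855 CPM at 7 dpa (-0.72, -0.75 to -0.70), and the ligand *bmp2* had 4.35 against 8.17 CPM (-0.78, -1.004 to -0.55). For *fgf20*, *bmp2*, *her6*, *fn1* and *msxc* the counting interval reached inside the threshold. The remaining genes differed by less than 1.5-fold. They included the mitotic kinase *ttk* (20.01 CPM at 14 dpa against 14.6 CPM at 7 dpa), the growth factor *igf2b* (16.2 against 11.8 CPM), the FGF antagonist *spry4* (8.08 against 5.58 CPM), the mitochondrial chaperone *hspd1* (204 against 203 CPM), the chromatin remodeller *smarca4* (60.2 against 63.9 CPM) and the protease inhibitor *timp2* (279.9 against 264 CPM). *ilf2* had 191 against 192 CPM and *rbbp6* had 57.8 against 50.7 CPM. Unlike *timp2*, the component named *timp2a* (comp16588_c0), chosen after its values were seen, was lower at 287 against 620 CPM.

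**Figure D4:**
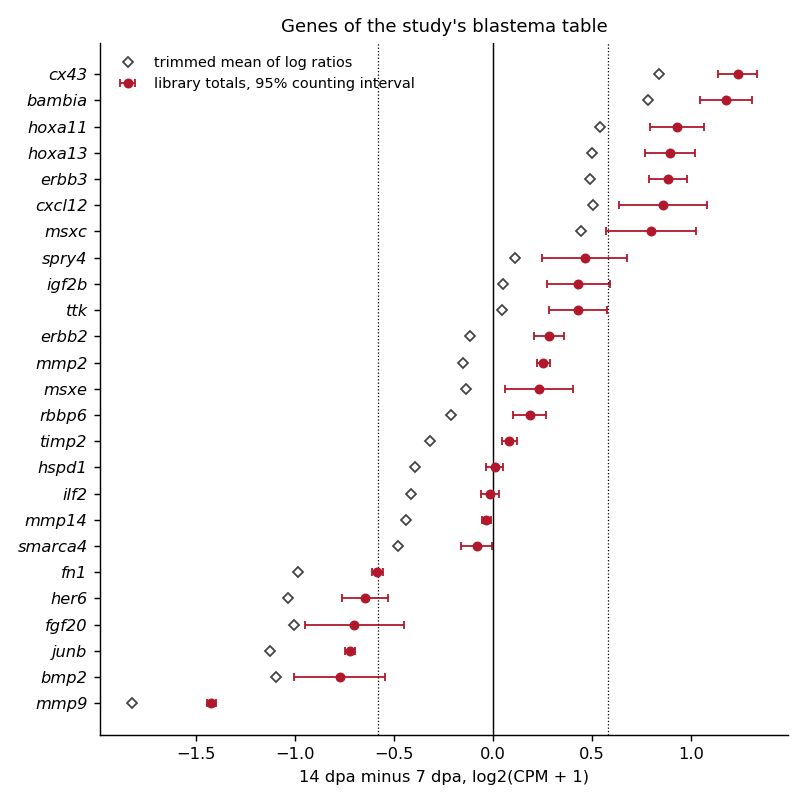
Change of the 25 components of the study's blastema table, 14 dpa minus 7 dpa in log2(CPM + 1). Filled points use library totals with 95% counting intervals, open diamonds the trimmed mean of log ratios, and dotted lines mark 0.58 in each direction. *cx43* (1.24) lay highest and *mmp9* (-1.42) lowest, and the trimmed mean moved every gene to the left.

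Of 85 cell division components, 68 passed the filter, with 19 higher (27.9%) and none lower, against 24.1% and 7.25% of all components. Their median of 0.42 (0.34 at 14 minus 3 dpa) became 0.06 by the trimmed mean, with 4 higher and 2 lower, where all components had -0.15. The proliferation marker *mki67* had 17.3, 82.7, 63.8 and 119 CPM at 0, 3, 7 and 14 dpa (0.89, 0.82 to 0.96). The kinetochore gene *kntc1* had 36.3 CPM at 14 dpa against 17.2 CPM at 7 dpa (1.04, 0.91 to 1.16), the ubiquitin ligase *g2e3* 14.1 against 4.89 CPM and the spindle motor *kif11* 30.4 against 18.2 CPM. By the trimmed mean *mki67* (0.49) and *kif11* (0.31) lay inside the threshold. The cell cycle factor *mybl2* had 52.6 against 46.8 CPM. DNA replication genes had a median of 0.34 (0.15 at 14 minus 3 dpa), with 5 of 29 components past the filter higher (17.2%) and none lower (34 in all), and by the trimmed mean none was higher and 1 was lower. The ribonucleotide reductase subunits *rrm1* (93.8 against 58.9 CPM) and 1 component of *rrm2* (16.4 against 8.74 CPM in comp46238_c1) and the helicase subunit *mcm5* (46.5 against 30.4 CPM) were higher by library totals and inside the threshold by the trimmed mean (0.26, 0.46 and 0.20). Another *rrm2* component (comp17529_c0) had 68.4 against 59.4 CPM, inside the threshold at 0.20. The replication factor *gins2* (0.54) and the histone chaperone *nasp* (0.42) lay within the threshold.

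Ribosomal protein genes were lower at 14 dpa in 41 of 62 components past the filter (of 68) and higher in 1, a low *rps10* component (comp11847_c0) with 5.24 CPM at 14 dpa against 0.323 CPM at 7 dpa, named after its values were seen. Of the 62, 66.1% were lower and 1.61% higher, against 7.25% and 24.1% of all components. The median was -0.70, and -1.10 by the trimmed mean. All 68 components together took 4.61% of reads at 14 dpa against 7.12% at 7 dpa. Their share was 4.12% at 3 dpa and 11.1% in uninjured fin. The median at 14 minus 3 dpa was 0.15. *rpl38* had 1010.4, 178, 521 and 189 CPM at 0, 3, 7 and 14 dpa (-1.46, -1.50 to -1.42). *rpl34* had 332 CPM at 14 dpa against 861 CPM at 7 dpa, *rpl31* 284 against 715 CPM and *rps12* 1149.6 against 2675 CPM. *rplp0* had 2089 against 3223 CPM (-0.63), and *rpl4* had 2163 against 2777 CPM (-0.36), lower by the trimmed mean alone (-0.76). The share of reads held by the 100 most abundant components was also lower at 14 dpa, at 23.6% against 28.7% at 7 dpa. It was 25.3% at 3 dpa, above the 14 dpa share, whereas the ribosomal share was lower at 3 than at 14 dpa. The part of this share in the result was not tested.

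Of 30 secretory pathway components past the filter (of 44), 1 was higher (3.33%) and 1 lower (3.33%), against 24.1% and 7.25% of all components. The other 28 lay inside the threshold. The median was 0.09, and -0.03 at 14 minus 3 dpa. By the trimmed mean 7 were lower and none higher, with a median of -0.32. The folding enzymes *p4hb* (784 CPM at 14 dpa against 771 CPM at 7 dpa) and *pdia3* (635 against 617 CPM) were nearly level. *mia3*, which loads collagen for export, was higher at 25.4 against 13.7 CPM (0.46 by the trimmed mean), and *sec24d*, a subunit of the COPII coat of export vesicles, had 118 against 79.6 CPM (0.57). The chaperone *sdf2l1* was lower at 88.7 against 135 CPM, and the translocon subunit *ssr3* had 88.7 against 132 CPM (-0.57, and lower by the trimmed mean at -0.97).

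Of 37 leukocyte components, 31 passed the filter, with 10 lower (32.3%, against 7.25% of all components) and 6 higher (19.4%, against 24.1%). The median was -0.14, and -0.12 at 14 minus 3 dpa, and the trimmed mean gave 12 lower and none higher. The inflammatory cytokine *il1b* had 0.46, 6.98, 67.3 and 11.2 CPM at 0, 3, 7 and 14 dpa (-2.49, -2.62 to -2.35). *SIGLEC15*, a receptor that osteoclasts use to mature, had 1.95 CPM at 14 dpa against 18.8 CPM at 7 dpa (-2.75, -2.98 to -2.50) in comp43243_c0, which was listed at 0 in uninjured fin, and 2.58 against 5.84 CPM in comp54686_c0. The osteoclast and macrophage phosphatase *acp5a* had 57.0 CPM at 14 dpa against 215 CPM at 7 dpa (-1.90, -1.97 to -1.83). All 3 peaked at 7 dpa. The leukocyte actin-binding gene *LSP1* had 185 against 365 CPM, the lymphocyte and epithelial receptor *havcr1* 16.3 against 34.3 CPM and the antigen presentation chaperone *cd74a* 1627 against 2551 CPM (-0.65). All components named here were lower. The rule named none of the 6 higher ones, whose largest change was 0.93, so the named genes do not stand for the whole list. For 7 leukocyte markers in 10 components the summed level was 1845 CPM at 14 dpa against 2823 CPM at 7 dpa. It was 1738 CPM at 3 dpa and 2053 CPM in uninjured fin. Most of each sum came from *cd74a* alone, with 1965, 1407, 2551 and 1627 CPM at 0, 3, 7 and 14 dpa. The sum therefore mainly follows that gene and not the other markers. At 14 dpa 3 of the 10 components were lower and 1 higher, and none was listed at 0 at any stage. A change in the share of leukocytes was not tested.

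The epidermal list had 4 higher (21.1%) and 2 lower (10.5%) among 19 components past the filter (of 22), near the 24.1% and 7.25% of all components. The median was 0.35, and 0.01 at 14 minus 3 dpa, and the trimmed mean turned it to -0.06 with 2 higher and 4 lower. The mucin *muc5b* had 22.0 CPM at 14 dpa against 6.41 CPM at 7 dpa (1.64, 1.46 to 1.81) and 218 CPM in uninjured fin. The junction gene *cgnl1* had 27.4 against 12.0 CPM in comp57377_c0 and 120 against 102 CPM (0.23) in comp54905_c0. The claudin *cldni* had 277 CPM at 14 dpa against 532 CPM at 7 dpa (-0.94, -0.97 to -0.90), and the laminin receptor subunit *itga3b* had 98.2 against 166 CPM. The keratin *krt15* had 1828 against 1359 CPM (0.43) and the plakophilin *pkp1b* 722 against 756 CPM. Summed over 8 epidermal markers, the level was 3080, 5647, 3841 and 4484 CPM at 0, 3, 7 and 14 dpa.

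Outside the lists, the largest named rise belonged to *glipr2*, which encodes a Golgi-associated protein, with 1.12, 2.02, 2.21 and 242 CPM at 0, 3, 7 and 14 dpa (6.24, 6.03 to 6.44). It was 109 times higher at 14 dpa than at 7 dpa and was not high at any other stage. *bhmt*, an enzyme of methionine metabolism, had 243, 2.23, 0.185 and 73.4 CPM (5.97, 5.77 to 6.11), of which the 7 dpa level rests on 8 reads. The uncharacterised *zgc:136930* (153 CPM at 14 dpa against 7.47 CPM at 7 dpa) and *wu:fb15e04* (281 against 18.0 CPM) were likewise lost after amputation and partly back at 14 dpa. The adhesion molecule *cdh13* had 25.6 against 1.04 CPM, and the phospholipase *PLA2G4F* had 57.8 against 3.64 CPM in comp54932_c0. *PLA2G4F* had 32.4 CPM at 3 dpa and 3.17 CPM in uninjured fin, and its second component (comp55888_c0) had 13.9 against 15.4 CPM. Among the largest falls, the nucleotide enzyme *dctd* had 15.8 CPM at 14 dpa against 208 CPM at 7 dpa (-3.64, -3.75 to -3.52), and the elongation factor copy *eef1a1l1* (comp28247_c0) had 0.573 against 17.7 CPM, whereas comp16980_c0 of the same name lay inside the threshold at -0.40. Another component of that name, comp59918_c0, went the other way, with 20 reads at 14 dpa against 0 at 7 dpa. Its change was 0.61, and 0.48 by the trimmed mean. Near-identical copies of such an elongation factor can exchange reads. The chromatin protein *hmgb1b* had 19.7 against 66.8 CPM in comp59605_c0 and 369 against 521 CPM (-0.50) in comp59582_c0, and the heparan sulfate proteoglycan *gpc1a* had 123 against 360.0 CPM.

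The miRNA miR-21 was the centre of the study's target analysis, and its predicted sites are printed because the 5 genes that carry them were followed by PCR. miRNAs pair with mRNAs through their seed and lower the level or translation of the mRNA. The mature bichir sequence is written 5′ to 3′ with T for U and its seed (bases 2 to 8) in capitals. In each site, also 5′ to 3′, capitals mark the 7 bases that face the seed:
miR-21: tAGCTTATcagactggtgttggc
pdcd4 site: gttcatatccaatgcttATAAGCTa
tgfbr2 site: tttaatgctggaagcagATGAGCTc
bcl2l13 site: tattttaccagttagTAAAGCTc
rgs5 site: agctgaaacagtccagATGAGCTg
chka site: tttatggtcactggATAAGCTg

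The sites of *pdcd4* and *chka* match the seed at 7 of 7 bases, those of *tgfbr2* and *rgs5* at 6 and that of *bcl2l13* at 5. The TGFβ receptor *tgfbr2* was lower, with 137 CPM at 14 dpa against 218 CPM at 7 dpa (-0.67, -0.72 to -0.62). The other genes did not pass the threshold. The translation inhibitor *pdcd4* had 21.4 CPM at 14 dpa against 18.1 CPM at 7 dpa (0.23, 0.10 to 0.37), the choline kinase *chka* 49.2 against 39.5 CPM (0.31), the G-protein regulator *rgs5* 74.1 against 50.5 CPM (0.54) and the mitochondrial Bcl-2 relative *bcl2l13* 74.8 against 90.5 CPM (-0.27, and lower by the trimmed mean at -0.67). In uninjured fin *pdcd4* had 13.1 CPM, *chka* 51.5, *rgs5* 26.9, *bcl2l13* 69.2 and *tgfbr2* 288 CPM. The study's list of genes with a site was chosen on expression that includes the 7 dpa library, so it is not independent evidence of a direction. The study reports the listed transcripts as downregulated in regenerating tissue, and its PCR as showing the same for the assayed genes. By library totals here, 15 of the list's 19 components had a higher CPM at 7 dpa than in uninjured fin, and 4 a lower one. These are sums per component, whereas the study reports transcripts. The same share over all components was not counted, so this count is not read as a result about the list. Of the genes with printed sites, *pdcd4*, *rgs5* and *bcl2l13* were higher at 7 dpa than in uninjured fin, and *chka* and *tgfbr2* lower. The 100 most abundant components took 47.9% of reads in uninjured fin and 28.7% at 7 dpa. Other scalings between these stages were not tested. At 14 dpa 3 of the 19 were higher (15.8%) and 2 lower (10.5%) than at 7 dpa, against 24.1% and 7.25% of all components. The median was 0.27, and -0.01 at 14 minus 3 dpa, and the trimmed mean turned it to -0.13 with 1 higher and 4 lower. Beyond *tgfbr2*, the translation factor *eif4a1* was lower (561 against 994 CPM), the kinase *rps6ka1* was higher (174 against 112 CPM, lost by the trimmed mean at 0.23), and *pm20d1* had 517 against 426 CPM.

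Within some components, the mix of transcripts also differed. In each component the transcript with the largest shift was taken, so part of its shift can be counting error. No baseline for these shifts was computed. Among 921 named components with at least 2 transcripts and 200 reads at both stages, the share of the most shifted transcript moved by a median of 9.17 percentage points, by over 20 points in 158 and by over 50 points in 1. That component was *cyp51*, a sterol synthesis enzyme, where comp56230_c0_seq4 took 72.9% of reads at 14 dpa (Wilson interval 68.1% to 77.3%) and 0% of 262 reads at 7 dpa (0% to 1.45%). At 3 dpa it took 60.8%. A transcript of *comtb*, which methylates catechols, took 53.1% at 14 dpa (48.1% to 58.1%) and 3.33% at 7 dpa (2.09% to 5.26%), against 46.9% at 3 dpa. The order was reversed for *svila*, a supervillin gene of the actin cortex, where comp55407_c0_seq17 took 51.4% at 14 dpa (49.1% to 53.7%) and 100% at 7 dpa (99.4% to 100%), against 64.6% at 3 dpa. One transcript of the peptidase *thop1* took 50.3% at 14 dpa and 97.8% at 7 dpa, against 27.7% at 3 dpa. One of *scube3*, a secreted signalling cofactor, took 62.0% at 14 dpa and 14.7% at 7 dpa, against 36.8% at 3 dpa. The 3 dpa share was nearer to that at 14 dpa than to that at 7 dpa in *cyp51*, *comtb*, *svila* and *thop1*, and nearer to that at 7 dpa in *scube3*. Reads shared between transcripts of a component are assigned by estimate, which these intervals do not cover.

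**Figure D5:**
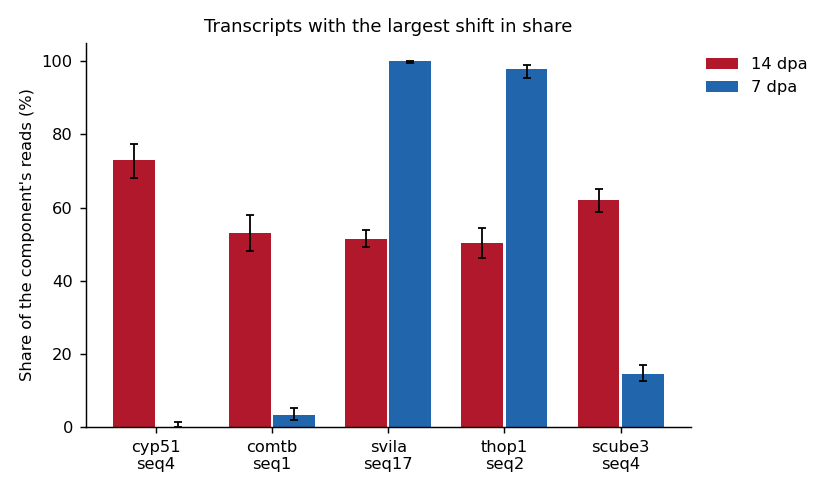
Share of a component's reads held by the transcript with the largest shift, in percent, for the 5 components with the largest shifts, with 14 dpa in red and 7 dpa in blue. Bars start at 0 and whiskers are 95% Wilson intervals, which cover counting error only. *cyp51* seq4 stood at 72.9% at 14 dpa and 0% at 7 dpa, and *svila* seq17 at 51.4% at 14 dpa and 100% at 7 dpa.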

How the data were processed

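Bichir pectoral fins were sampled at 0, 3, 7 and 14 dpa, with 1 polyA+ mRNA library per stage from pooled tissues. Per the labels and the study's methods, the authors trimmed reads with Trimmomatic, assembled them with Trinity and estimated transcript abundance with RSEM. The deposited values are log2 of counts, as all values above 0 return whole numbers within a relative tolerance of 0.0001. A listed value of 0 can stand for no read or 1 read and was taken as no read. Of 132496 table entries, 4760 exact repeats were dropped, leaving 127736 transcripts in 94050 components. Reads were summed per component and divided by the library total, and changes used a pseudocount of 1 CPM. With 1 library per stage no test was run, and a component was called past 0.58. Intervals are exact binomial for changes and Wilson for shares, at 95%. For a component listed at 0 at 14 dpa a fold is a bound against 3 reads in that library. The steps were tested on simulated counts.

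The named genes were all of the study's blastema table, the miR-21 site genes assayed by PCR, the 12 largest rises and 12 largest falls among named components with a mean of at least 10 CPM, the leading members of each list by change and level with a mean of at least 5 CPM, 2 unnamed components in each direction and the 5 largest transcript shifts. Further components of the same genes were added after their values were seen. Members, lists and tests were chosen with earlier results of these data known. Other scalings, pseudocounts, filters, thresholds and units were tried. Values of the small RNA libraries were not used here. Python 3.11.15, numpy 2.4.6, scipy 1.17.1, pandas 2.3.3 and matplotlib 3.10.9 were used.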

Additional observations from a re-analysis of the deposited data

How the results depend on the processing

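With 1 library per stage the spread between fish is unknown, no library could be left out, and depth limits precision alone. No paired analysis was possible because each stage has 1 library and no replicate number. By library totals 6944 components were higher and 2092 lower at 14 dpa. The trimmed mean gave 3544 and 5537, the median of ratios 4117 and 4157, and no depth scaling 5247 and 3237. A pseudocount of 5 CPM gave 3139 and 1052, a mean of at least 10 CPM 2241 and 872, and single transcripts 11994 and 4914. Without a filter 10754 were higher. A threshold of 1 gave 2910 and 677, and requiring the whole counting interval past 0.58 gave 4416 and 1215. With the 3 dpa library in place of 7 dpa, an alternative chosen after seeing the data, 2192 and 574 were called. The cause of these differences was not tested. No named component or list median called past the threshold turned sign under any other scaling, pseudocount, filter, unit or handling of reads tried. For a single component a pseudocount or a filter cannot change the sign. The trimmed mean shifts changes by up to 0.41, which is less than 0.58, so it could not turn a call either. The lack of reversals under those settings is therefore no evidence of stability. The swap to 3 dpa was not among the settings of this sign check. At 14 minus 3 dpa the ribosomal protein median was 0.15, against -0.70 at 14 minus 7 dpa. The medians of skeletal muscle (1.23) and patterning factors (1.2) kept their sign. That of myelin was nearly level (0.02), with 0 components higher and 0 lower past 0.58 at 14 minus 3 dpa. Among named components lower at 14 than at 7 dpa, the sign at 14 minus 3 dpa was mixed. It turned for *il1b* (0.61), *SIGLEC15* in comp43243_c0 (0.88), *igfbp3* (0.41), *fn1* (0.35) and *junb* (0.22), among others. It did not turn for *mmp9* (-0.52), *inhbab* (-0.67), *dctd* (-0.54), *htra1b* (-0.53) and *gpc1a* (-0.35), among others. The number on each side was not counted.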

Other observations

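Among components with a mean of at least 10 CPM, those without a name held the largest changes in both directions. At 14 dpa comp49777_c0 had 515 CPM against 1.38 CPM at 7 dpa (7.76, 7.54 to 7.97), with 6.19 CPM at 3 dpa and 33.9 CPM in uninjured fin. Another, comp27141_c0, had 319 CPM at 14 dpa against 0.738 CPM at 7 dpa (7.52, 7.29 to 7.73). In the other direction, comp53024_c0 stood at 0 in the 14 dpa library against 2406 reads at 7 dpa, which makes it at least 710-fold lower by a floor of 3 reads in the library. It was listed at 0 in uninjured fin and at 3 dpa. The component comp53964_c0 had 0.599 CPM at 14 dpa and 126 CPM at 7 dpa (-6.31, -6.52 to -6.06), and was likewise listed at 0 at both earlier stages.

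No component with at least 10 CPM at 14 dpa was confined to that library (at most 3 reads in each other mRNA library), whereas 12 were confined to the 7 dpa library, 0 to the 3 dpa library and 14 to the 0 dpa library. None of the 12 had a name, and together they took 0.0205% of the 7 dpa reads.

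The tilt toward higher calls at 14 dpa differed by abundance. Between 1 and 3 CPM on average, 27.4% of components were higher and 6.18% lower, with a median of 0.25. At 100 CPM and above, 17.8% were higher and 15.1% lower, with a median of -0.01.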
